A study of Homo sapiens with 4 samples.

Results

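The nonsense-mediated decay (NMD) factors examined here were 9 genes chosen by symbol, UPF1, UPF2, UPF3A, UPF3B, SMG1, SMG5, SMG6, SMG8 and SMG9, out of 51740 rows of a gene table. All 9 were among its 23333 tested genes, those with an adjusted p-value, so none was lost to a filter on low values. RNA was sequenced from nuclear and cytoplasmic fractions of HEK293T, a line derived from human embryonic kidney that expresses the SV40 large T antigen. The cells were grown in DMEM with serum, and all 4 libraries came from formaldehyde-crosslinked cells, with 2 biological replicates of each of the 2 fractions. Both fractions were made in buffers without magnesium and with EDTA, and the input to each library kit, which depletes ribosomal RNA, was 400 ng. Because the input mass was the same, amounts per cell were not measured, and a larger RNA content per cell and a larger number of cells or nuclei cannot be told apart. Values are on the scale of the authors' size factors unless equal library totals are named. That scale sets the summed gene means of the 2 fractions equal by a single shift of every fold change, to compare shares of a fraction.

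NMD is a surveillance pathway that destroys mRNAs on which translation stops too early, typically upstream of an exon junction or far from the poly(A) tail. UPF1 is the RNA helicase at its centre, and UPF2 bridges it to UPF3A or UPF3B, which contact the exon junction complex left behind by splicing. The kinase SMG1, held in check by SMG8 and SMG9, phosphorylates UPF1. Phosphorylated UPF1 is then bound by SMG6, an endonuclease that cuts the target, and by SMG5, which helps to recruit deadenylation and decapping enzymes. The mRNAs of several of these factors are themselves substrates of the pathway, an autoregulatory loop. The proteins act mainly in the cytoplasm, on translating ribosomes, whereas the measurements below concern the mRNAs and pre-mRNAs that encode them.

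The NMD factor RNAs did not share a direction between the fractions. SMG8, SMG5 and UPF1 were higher in the cytoplasm, the RNAs of UPF3B, SMG6, UPF2, UPF3A and SMG1 were higher in the nucleus, and SMG9 was not called. Calls were made where the DESeq2 adjusted p-value deposited by the authors was no more than 0.01, the threshold that the study used, and fold changes, standard errors and DESeq2 adjusted p-values below are those of the authors' table unless another fit is named. These 8 calls among 9 genes stand beside 52.4% of all tested genes called in either direction and 76.7% of the 12138 tested protein-coding genes with a mean over 50, which the NMD factors resemble more, all having means of at least 596. The 3 cytoplasmic calls are to be read against 25.9% of all tested and 43.6% of those protein-coding genes called in that direction, and the 5 nuclear calls against 26.5% and 33.0%. The log2 fold changes, cytoplasmic over nuclear, ran from -1.87 for UPF3B to 1.80 for SMG8, with a median of -0.34 beside -0.12 over all tested genes and 0.11 over the 15336 tested protein-coding genes.

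Read counts of single libraries were recovered from the deposited mean, fold change and standard error, which for each of the 9 genes fitted a single set of 4 whole numbers within the limits of the search. They are given as normalized counts, the count divided by the library's size factor. The table does not tie the recovered libraries to replicate numbers, so they are named by depth as the deeper and the shallower library of a fraction. In all 9 genes the libraries of the fractions did not overlap. The same held for 93.3% of the 13445 genes with recovered counts, so that lack of overlap was the rule in these data and does not set the NMD factors apart.

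**Figure D1:**
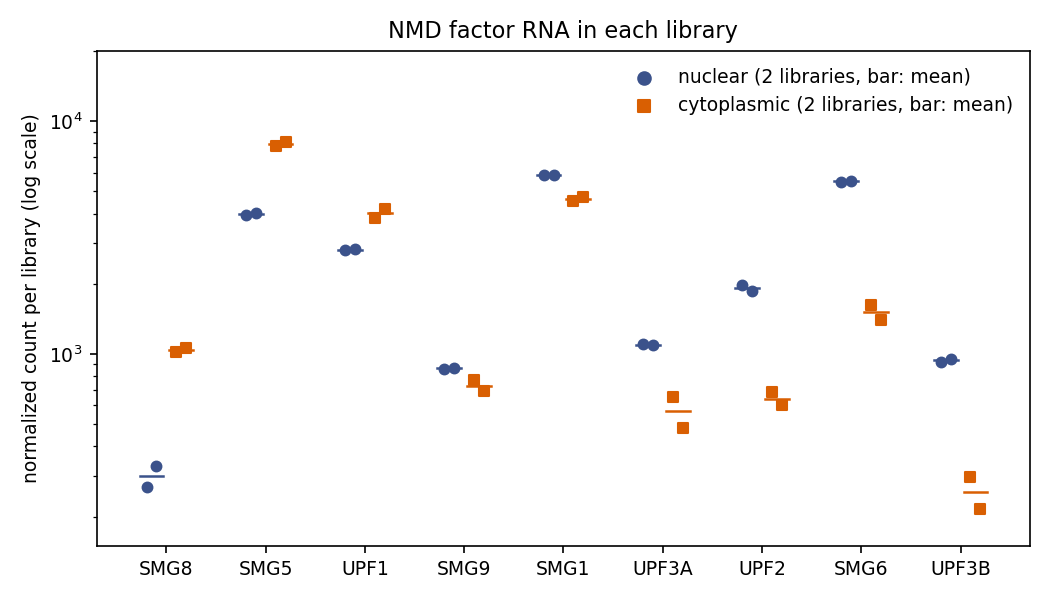
Normalized counts of the NMD factors (vertical axis, log scale) in 2 nuclear libraries (blue circles) and 2 cytoplasmic libraries (orange squares), with a bar at each fraction's mean and genes ordered by fold change. SMG8, SMG5 and UPF1 lie higher in the cytoplasmic libraries and the other 6 in the nuclear ones, with no overlap in any gene.

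Among the core factors, UPF1 (ENSG00000005007, hg38 chromosome 19, 18831959 to 18868230, plus strand) had 2797 and 2807 normalized counts in the deeper and the shallower nuclear library and 3835 and 4197 in the cytoplasmic ones. Both cytoplasmic libraries were thus above both nuclear libraries, by a smaller margin than for SMG8 or SMG5. The means were 2802 ± 6.83 (SD, n = 2) and 4016 ± 256 (SD, n = 2), a 1.43-fold difference. The log2 fold change was 0.52 with a standard error of 0.11 and a DESeq2 adjusted p-value of 9.09e-06. On a scale that gives all libraries the same total, on which 16.2% of tested genes were called cytoplasmic and 38.3% nuclear, UPF1 stood at -0.14 with an adjusted p-value of 0.266, so its direction depended on the scale.

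UPF2 (ENSG00000151461, chromosome 10, 11920022 to 12043170, minus strand), the bridging factor, had 1967 and 1862 normalized counts in the nuclear libraries. In the cytoplasmic libraries it had 682 and 602. Both nuclear libraries were far above both cytoplasmic ones, and the spread within a fraction was small beside that gap. The nuclear level was 2.98-fold higher, with a log2 fold change of -1.58, a standard error of 0.14 and a DESeq2 adjusted p-value of 4.13e-30.

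UPF3A and UPF3B are paralogues that bind the exon junction complex, of which UPF3B is regarded as the more active in NMD. UPF3A (ENSG00000169062, chromosome 13, 114281601 to 114305817, plus strand) had 1101 and 1091 normalized counts in the nuclear libraries and 651 and 482 in the cytoplasmic ones. UPF3B (ENSG00000125351, chromosome X, 119834022 to 119852998, minus strand) had 922 and 954 in the nuclear libraries and 294 and 216 in the cytoplasmic ones. Both were higher in every nuclear library, and in both the deeper cytoplasmic library was above the shallower one by more than the nuclear libraries differed. The nuclear level was 1.93-fold that of the cytoplasm for UPF3A and 3.67-fold for UPF3B. Their log2 fold changes were -0.95 (standard error 0.17, DESeq2 adjusted p-value 2.67e-08) and -1.87 (standard error 0.18, DESeq2 adjusted p-value 1.6e-24). UPF3B therefore lay 0.92 further towards the nucleus on the log2 scale than UPF3A, with a 95% interval of 0.45 to 1.40 from both standard errors, taken as independent.

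The kinase SMG1 and its regulators SMG8 and SMG9 form 1 protein complex, and their RNAs went different ways. SMG8 (ENSG00000167447, chromosome 17, 59209400 to 59215239, plus strand) had 267 and 330 normalized counts in the nuclear libraries and 1021 and 1056 in the cytoplasmic ones. It was the most cytoplasmic of the 9, with a 3.49-fold difference and a log2 fold change of 1.80 (standard error 0.16, DESeq2 adjusted p-value 3.42e-27). In GENCODE 44, 99.8% of the SMG8 span lies under a further gene model on the same strand, ENSG00000265303. The authors left stretches shared by several genes out of the counting, in release 34, and how much of SMG8 that touched was not tested.

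SMG9 (ENSG00000105771, chromosome 19, 43727983 to 43754962, minus strand) had 862 and 873 normalized counts in the nuclear libraries and 772 and 689 in the cytoplasmic ones. The nuclear libraries were slightly higher, yet the log2 fold change of -0.25 (standard error 0.15, 95% interval -0.54 to 0.04) gave a DESeq2 adjusted p-value of 0.137. On the scale of equal library totals SMG9 stood at -0.91 with an adjusted p-value of 1.76e-09 and passed the threshold, so the missing call depended on the scale.

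SMG1 itself (ENSG00000157106, chromosome 16, 18804860 to 18926408, minus strand) had 5861 and 5853 normalized counts in the nuclear libraries and 4539 and 4731 in the cytoplasmic ones. The nuclear libraries were above the cytoplasmic ones by 1.26-fold, and the nuclear pair was almost identical. The log2 fold change was -0.34 with a standard error of 0.10 and a DESeq2 adjusted p-value of 0.00253. SMG1 was the called NMD factor with the smallest change. Fitted with limma on the recovered counts, its adjusted p-value was 0.00181, and 0.0227, 0.0204 and 0.0154 without the deeper nuclear, the shallower nuclear and the deeper cytoplasmic library, so the call was lost in each of these 3 cases.

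SMG1 has partial copies on the same chromosome, and their sequence was compared because a read of 100 nt can fail to tell them apart. Below are 30 bases of the SMG1 coding sequence and of its copies, 5′ to 3′ on each gene's own strand, read from hg38, with a capital at position 11 counted from the 5′ end of the window. The SMG1 window starts at base 266 of the coding sequence and lies at chr16:18896169-18896198 on the minus strand.
SMG1: gtgtcaatggAggatctggggaaaatactt
SMG1P1: gtgtcaatggGggatctggggaaaatactt
SMG1P2: gtgtcaatggAggatctggggaaaatactt
SMG1P3: gtgtcaatggGggatctggggaaaatactt
SMG1P4: gtgtcaatggGggatctggggaaaatactt
SMG1P5: gtgtcaatggAggatctggggaaaatactt
SMG1P2 and SMG1P5 are identical to SMG1 over this window, while SMG1P1, SMG1P3 and SMG1P4 carry the difference A11G. Of all windows of 100 nt, 7.28% in the SMG1 span and 6.36% in its coding sequence occur unchanged in the genomic sequence of a copy. Most windows of the SMG1 span, unspliced, can therefore be told from its copies by a read of that length. Coding windows that cross an exon junction cannot match unspliced genomic sequence. The coding share therefore does not tell how many spliced reads are shared with spliced RNA of the copies. The copies are closer to each other, and between 24.1% (SMG1P7) and 87.6% (SMG1P1) of their windows occur in SMG1 or another copy. How reads that align to several of them were counted is not given in the sources used here, so the values of the copies are uncertain.

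The table held 9 pseudogene rows of the NMD factors, 7 of SMG1 and 2 of UPF3A, and the UPF3A rows were too low to be tested. SMG1P2 had 1359 and 1330 normalized counts in the nuclear libraries and 140 and 148 in the cytoplasmic ones. That is a 9.35-fold nuclear excess, beside 1.26-fold for SMG1. Its log2 fold change was -3.22 with a standard error of 0.17. SMG1P3, the copy with the highest mean, had 2512 and 2101 in the nuclear and 283 and 363 in the cytoplasmic libraries, a log2 fold change of -2.84. SMG1P4, SMG1P5 and SMG1P1 followed at -2.41, -2.29 and -2.10, and all 5 of these intervals lay below that of SMG1. SMG1P7 was at -0.63 with a DESeq2 adjusted p-value of 0.00441, and its interval of -1.03 to -0.23 overlapped that of SMG1. Other gene models on the same strand cover the whole annotated span of SMG1P1, SMG1P2 and SMG1P3 in GENCODE 44. They also cover 66.6% of that of SMG1P4, 88.8% of that of SMG1P5, 85.9% of that of SMG1P7 and 19.4% of that of SMG1P6. For SMG1P5 and SMG1P7 these models include another entry under the same symbol. The part of this overlap in the counts of the copies was not tested. SMG1P6 was not called, with 125 and 159 normalized counts in the nuclear and 128 and 115 in the cytoplasmic libraries.

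**Figure D2:**
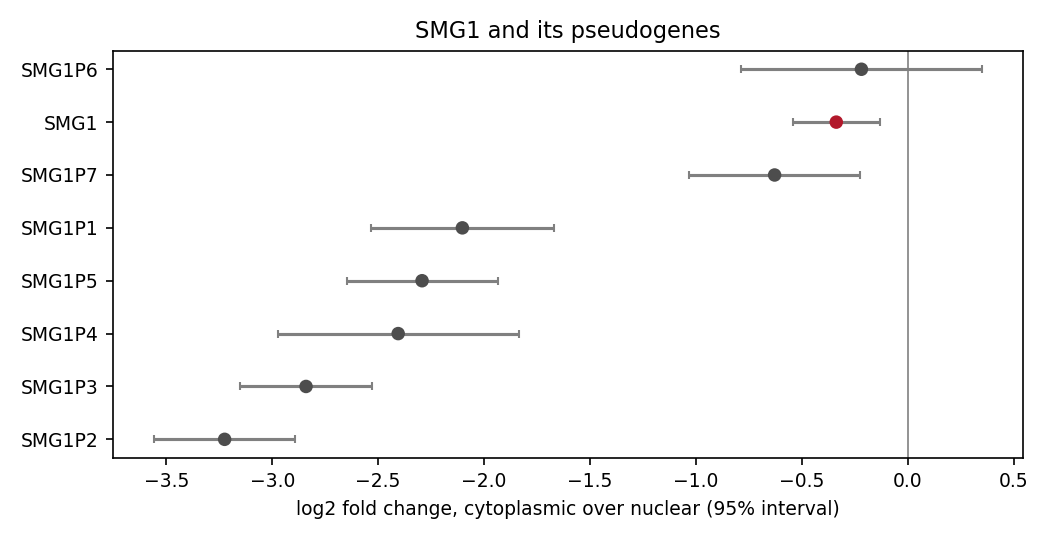
Log2 fold change, cytoplasmic over nuclear (horizontal axis), of SMG1 (red) and its pseudogenes with a mean over 50 (grey), with 95% intervals. SMG1 sits at -0.34, near SMG1P6 and SMG1P7, and the other 5 copies lie between -3.22 and -2.10.

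The effectors SMG5 and SMG6, which bind phosphorylated UPF1, lay on opposite sides. SMG5 (ENSG00000198952, chromosome 1, 156249224 to 156282825, minus strand) had 3952 and 4021 normalized counts in the nuclear libraries and 7766 and 8146 in the cytoplasmic ones. The cytoplasmic libraries held 2.00-fold the nuclear level, with a log2 fold change of 1.00 (standard error 0.10, DESeq2 adjusted p-value 4.74e-21). SMG6 (ENSG00000070366, chromosome 17, 2059839 to 2303785, minus strand), the endonuclease, had 5474 and 5534 in the nuclear libraries and 1612 and 1398 in the cytoplasmic ones. It was 3.66-fold higher in the nucleus, with a log2 fold change of -1.87 (standard error 0.12, DESeq2 adjusted p-value 2.04e-55). Of the SMG6 span, 8.19% lies under other genes of either strand in GENCODE 44, the tumour suppressor HIC1 among them, and 0.635% under genes on the same strand.

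A pair of other factors of the pathway, not among the 9, was followed in the same way. DHX34, a helicase that promotes UPF1 phosphorylation, had 1709 and 1661 in the nuclear and 1583 and 1728 in the cytoplasmic libraries. Its fractions overlapped, and its fold change of -0.03 was not called. NBAS, which acts on targets translated at the endoplasmic reticulum, had 3594 and 3580 in the nuclear and 1643 and 1926 in the cytoplasmic libraries, a log2 fold change of -1.01 with a DESeq2 adjusted p-value of 7.36e-16.

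In the order of fold changes, most neighbours were separated by more than their errors. SMG8 exceeded SMG5 by 0.80 (95% interval 0.42 to 1.19) on the log2 scale, SMG5 exceeded UPF1 by 0.48 (0.18 to 0.78), and UPF1 exceeded SMG9 by 0.77 (0.40 to 1.13). SMG9 and SMG1 were not separated, with a difference of 0.09 and an interval of -0.26 to 0.44. Below them, SMG1 exceeded UPF3A by 0.61 (0.23 to 0.99) and UPF3A exceeded UPF2 by 0.63 (0.21 to 1.05). At the nuclear end UPF2, SMG6 and UPF3B could not be ordered, as UPF2 and SMG6 differed by 0.29 (-0.06 to 0.65) and SMG6 and UPF3B by 0.00 (-0.42 to 0.43).

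**Figure D3:**
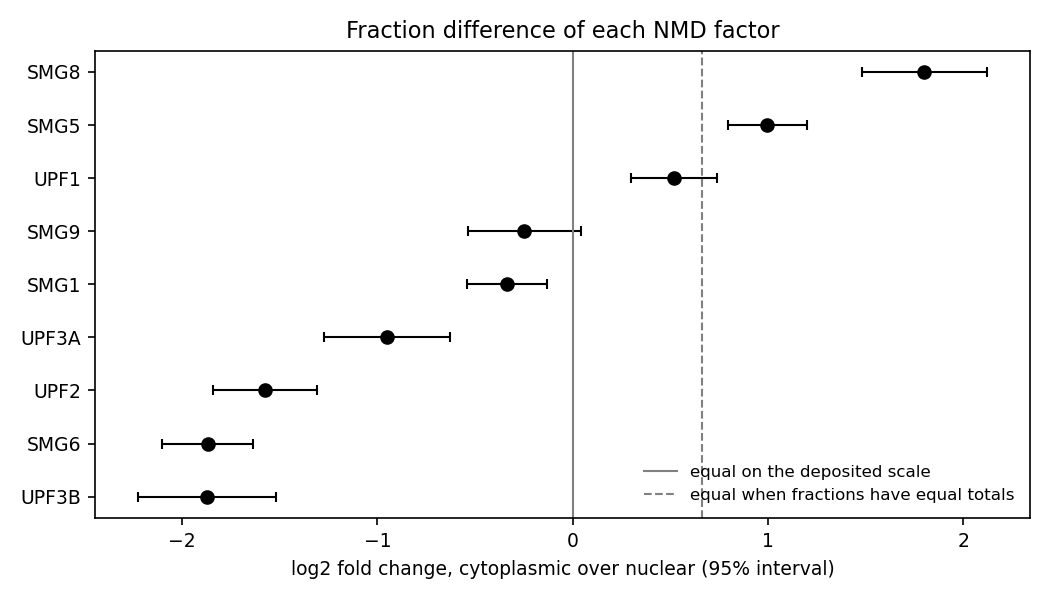
Log2 fold change, cytoplasmic over nuclear (horizontal axis), of each NMD factor with its 95% interval from the deposited standard error. The solid line marks equal levels on the deposited scale. The dashed line marks equal levels when both fractions have the same total, a shift of 0.66. UPF1 (0.52) lies between these lines and changes sides.

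Levels of different genes were compared per kb of exon (the union of annotated exons) and per kb of gene span, since intronic reads were counted too. In the nuclear fraction SMG5 led with 752 normalized counts per exonic kb, followed by SMG6 with 521, UPF3B with 370, UPF2 with 326, UPF1 with 314, SMG1 with 233, UPF3A with 190, SMG9 with 110 and SMG8 with 79.7. In the cytoplasmic fraction SMG5 led again, with 1500 per exonic kb, and UPF1 followed with 450, SMG8 with 277, SMG1 with 184 and SMG6 with 142. UPF2 with 109, UPF3B with 101, UPF3A with 98.4 and SMG9 with 92.4 came last. The last 4 cytoplasmic levels were not separated beyond their spread, since the cytoplasmic libraries of UPF3B, and those of UPF3A, lay further apart per kb than UPF2 and SMG9 did, and in the nuclear fraction the gap between UPF2 and UPF1 was smaller than the SD of UPF2. Per kb of span the order was another. In the nuclear fraction SMG5 led with 119 normalized counts per kb of span, followed by UPF1 with 77.3, SMG8 with 51.1, UPF3B with 49.4, SMG1 with 48.2, UPF3A with 45.2 and SMG9 with 32.2, and the long genes SMG6 with 22.6 and UPF2 with 15.5 came last. The nuclear libraries of SMG8 lay on either side of UPF3B and SMG1 per kb of span, and UPF3A lay within the SD of SMG8. SMG8 was thus not separated from UPF3B, SMG1 or UPF3A there. In the cytoplasmic fraction SMG5 with 237, SMG8 with 178 and UPF1 with 111 led, and SMG6 with 6.17 and UPF2 with 5.21 were again last. SMG5 was first on both of these scales in both fractions, whereas the place of SMG8 and SMG6 depended on the length used. The union of exons was 10.6 kb for SMG6, whose canonical transcript is 5.97 kb, and 5.30 kb for SMG5, whose canonical transcript is 4.56 kb. Levels per kb of canonical transcript were not compared, so the first place of SMG5 holds for these scales only.

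The authors counted exons and introns together, so unspliced RNA enters each value. Long genes were more nuclear than short ones across these data, and the cause was not tested. The median log2 fold change of protein-coding genes with a mean over 50 went from 2.24 in the shortest of 10 classes of gene span to -2.03 in the longest. SMG8, which spans 5.84 kb with 4 exons, was at 1.80 beside a median of 2.24 in its class, and SMG6, which spans 244 kb, was at -1.87 beside -2.03. UPF1 (36.3 kb) and SMG5 (33.6 kb) shared a class with a median of 0.41, and 53.1% and 72.2% of its 1213 genes had lower fold changes. The direction of these 4 genes was thus that of the class median.

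SMG1 and UPF2 have almost the same span, 122 and 123 kb, and lay on either side of their class median of -0.90. SMG1 departed from it by 0.56 and UPF2 by -0.68 on the log2 scale. Outside the union of annotated exons, introns make up 79.3% of the SMG1 span and 95.2% of the UPF2 span. That union is 25.2 kb for SMG1 and 5.88 kb for UPF2. The canonical transcripts, with 63 and 22 exons, are 16.1 and 5.17 kb, so the intron shares depend on the exon definition.

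UPF3B, UPF3A and SMG9 were all below the median of genes of their span. They span 19.0, 24.2 and 27.0 kb and fall in a class of 1214 genes with a median log2 fold change of 0.70. UPF3B lay at -2.57 from that median, and 34 of the class (2.80%) were lower. UPF3A lay at -1.65 from it, with 108 genes (8.90%) lower. SMG9 lay at -0.94 from it, with 263 genes (21.7%) lower. The short UPF3B thus had nearly the fold change of SMG6, whose gene spans 244 kb. Over the 9 NMD factors the median departure was -0.44, a value that moved with the definition of length and is given as a description. With classes of exonic length the departures of UPF3B and UPF3A were -3.15 and -1.13, that of UPF2 was -1.76 and that of SMG9 was 0.032.

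**Figure D4:**
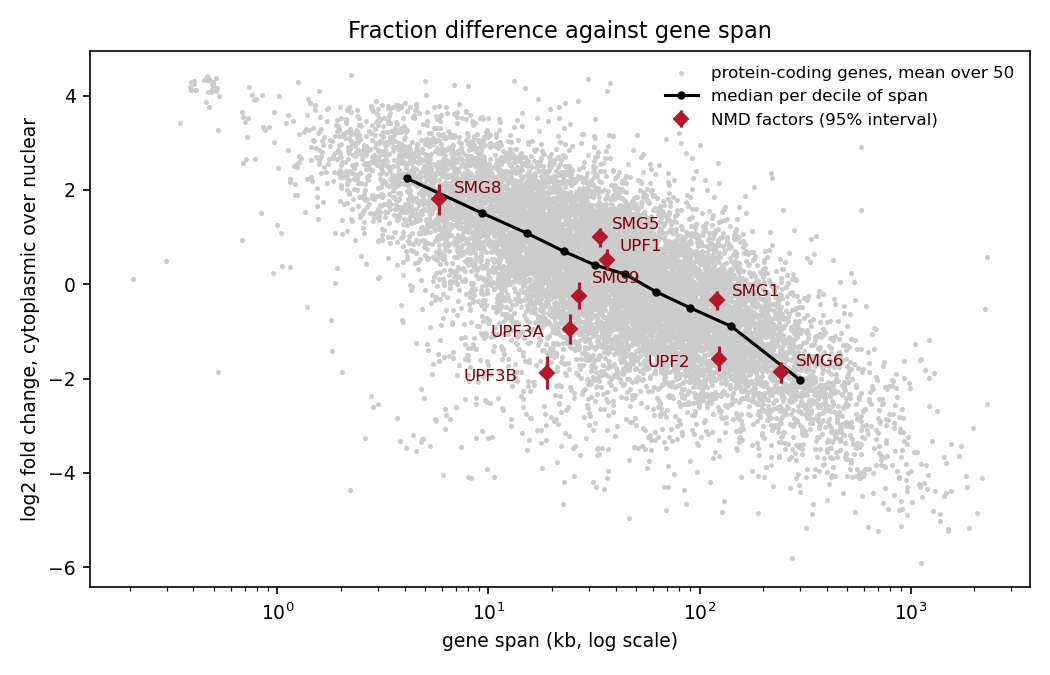
Log2 fold change, cytoplasmic over nuclear (vertical axis), against gene span in kb (horizontal axis, log scale) for 12134 protein-coding genes with a mean over 50 (grey), with the median of each span class (black line) and the NMD factors (red, 95% intervals). SMG8, UPF1 and SMG6 lie near the line, and UPF3B, UPF3A and SMG9 lie below it.

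Other genes of the pathway were taken as lists. Their counts are to be read against 43.6% of protein-coding genes with a mean over 50 called cytoplasmic and 33.0% called nuclear. Of 8 other NMD factors, 4 were called cytoplasmic, 1 was called nuclear and 3 were not called, with a median log2 fold change of 0.85. SEC13, a coat protein of vesicles and of the nuclear pore, was the highest at 2.18, and RUVBL2, an ATPase that with RUVBL1 helps to maintain SMG1 and related kinases, was at 2.17. NBAS was the lowest, at -1.01, and was the single call against the majority.

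The exon junction complex, which UPF3A and UPF3B contact, and its partners gave 6 cytoplasmic and 1 nuclear call among 10 genes, with a median of 0.73. The shares over protein-coding genes with a mean over 50 were 43.6% and 33.0%. SAP18, at 2.75, was the highest, and the core subunits RBM8A (2.68), EIF4A3 (1.93), CASC3 (0.85) and MAGOH (0.61) were called cytoplasmic, while the MAGOH paralogue MAGOHB, at 0.39 with a DESeq2 adjusted p-value of 0.0508, was not. PNN, a splicing-associated protein of nuclear speckles, was the sole nuclear call at -1.51 (standard error 0.16, DESeq2 adjusted p-value 5.81e-20). With equal library totals, CASC3 and MAGOH were no longer called and the list stood at 4 cytoplasmic to 2 nuclear genes, beside 16.2% and 38.3% of all tested genes.

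The termination factors that meet UPF1 at a stop codon were called cytoplasmic in 4 of 4 cases, beside 43.6% of protein-coding genes with a mean over 50, with a median of 1.501. GSPT2 (eRF3b) was the highest at 1.82 and GSPT1 (eRF3a) the lowest at 0.74. With equal library totals GSPT1 stood at 0.07 and was no longer called. That left 3 cytoplasmic and 0 nuclear calls among the termination factors, beside 16.2% and 38.3% of all tested genes. Decapping and 5′ to 3′ decay genes were divided, with 5 cytoplasmic, 3 nuclear and 3 uncalled of 11 and a median of 0.10. Their cytoplasmic and nuclear counts stand beside 43.6% and 33.0% of protein-coding genes with a mean over 50. DCPS, the scavenger enzyme for cap remnants, was at 1.47, while DCP1B (-0.78), the exonuclease XRN1 (-0.57) and LSM14A (-0.34) were called nuclear. With equal library totals this list turned to 2 cytoplasmic and 6 nuclear calls, beside 16.2% and 38.3% of all tested genes.

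Kinases related to SMG1, together with the TELO2-TTI1-TTI2 complex that matures them, gave 2 cytoplasmic and 3 nuclear calls of 8, with a median of -0.12. Among protein-coding genes with a mean over 50, the shares were 43.6% and 33.0%. TTI2 was the highest at 1.04 and PRKDC, the DNA-dependent protein kinase, was called at 0.40. The DNA damage kinases ATM (-0.67) and ATR (-1.13) and the assembly factor TTI1 (-0.36) were called nuclear. With equal library totals none of the 8 was called cytoplasmic and 6 were called nuclear, so the cytoplasmic calls of this list rested on the scale. Of all tested genes, 16.2% were called cytoplasmic and 38.3% nuclear on that scale.

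Of 20 genes known to produce NMD substrates, 15 were called cytoplasmic and 2 nuclear, with a median of 0.98. Among protein-coding genes with a mean over 50, 43.6% were called cytoplasmic and 33.0% nuclear. Among all tested genes the shares were 25.9% and 26.5%. The 20 genes are short, with a median span of 8.03 kb, and the medians of all protein-coding genes in the 2 shortest span classes were higher, 2.24 and 1.51. ATF4, a stress transcription factor whose upstream open reading frames make it an NMD substrate, was the highest at 3.37 (standard error 0.15, DESeq2 adjusted p-value 3.8e-112). The small nucleolar RNA host gene SNHG12, at -0.62, was the lowest and was called nuclear together with the cystine transporter SLC7A11 at -0.46. Counts per gene pool all isoforms, so the substrate isoforms of genes such as SRSF3 or TRA2B were not separated from the others. With equal library totals the split of this list was 7 cytoplasmic to 5 nuclear genes, beside 16.2% and 38.3% of all tested genes.

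**Figure D5:**
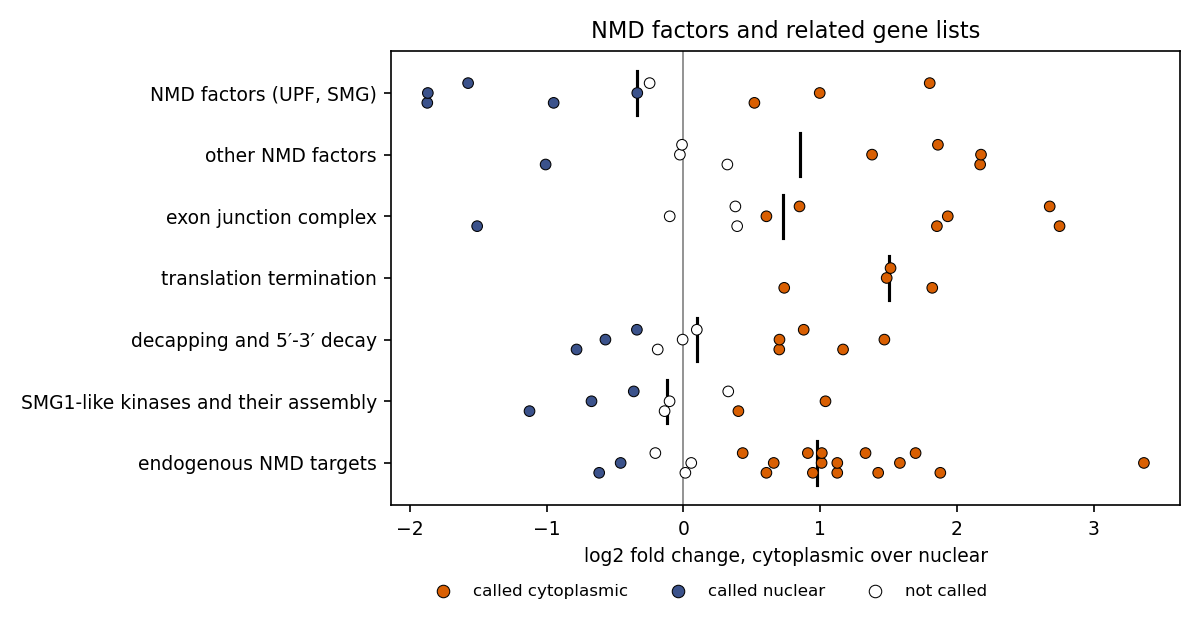
Log2 fold change, cytoplasmic over nuclear (horizontal axis), of each gene in the NMD factor list and 6 related lists, filled orange or blue where called cytoplasmic or nuclear and white where not called, with a vertical bar at each list's median. The NMD factors have the lowest median of the lists, -0.34, and the termination factors the highest, 1.501.

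The fractions and the cell line were checked on marker RNAs. The nuclear lncRNAs MALAT1, NEAT1 and KCNQ1OT1 were at log2 fold changes of -4.25 to -3.09, and the mRNAs GAPDH, RPLP0 and ACTB at 2.68 to 3.78. LIN28B, IGF2BP1 and NEFM, which HEK293 lines express, had means of 3376 to 16264, whereas CD3E, ALB and PTPRC, of blood and liver, had means of 0.29 to 1.76. Size factors were 1.34 and 1.19 in the nuclear and 0.853 and 0.755 in the cytoplasmic libraries. With limma on recovered counts, 42.4% of 13445 genes were called cytoplasmic and 40.3% nuclear. The NMD factors gave 3 cytoplasmic and 5 nuclear calls in that fit. Those counts were picked to give the deposited fold changes, and the authors' size factors were kept. The fit is therefore no independent check of the fold changes or their directions.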

How the data were processed

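Crosslinked HEK293T cells were fractionated, and RNA of 2 nuclear and 2 cytoplasmic libraries was sequenced from both ends for 100 nt. The authors aligned reads to hg38 with STAR and counted them with featureCounts 2.0.2 over exons and introns of an extended GENCODE 34 annotation, with a minimum overlap of 20 bases, after removing stretches shared by several genes. The authors compared the fractions with DESeq2 without covariates. The deposited table gives per gene a signal (the normalized count averaged by the authors over all 4 libraries), a log2 fold change of cytoplasmic over nuclear with its standard error, a Wald score, and a p-value with its Benjamini-Hochberg adjusted p-value. All deposited comparison values used here are named as such.

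No column of a single library was used from the deposited table. The values that 1 read adds to the deposited mean gave the 4 size factors, and 3501 of 3501 low genes were whole-number combinations of them. Sets of 4 whole counts that give the deposited mean were refitted with a negative binomial model, with the libraries of a fraction allowed to differ by up to 1.6-fold (4-fold below a mean of 500) and a fraction's mean to depart by 2% (6%) from that given by the fold change, and a set was kept where the fold change matched within 1e-08. Of 13496 tested genes with a mean of 50 to 6500, 13445 (99.6%) had exactly 1 match, 0 had several and 51 had none, and the largest difference among matches was 5.2e-10. The step was chosen after the data were seen and was tested on simulated data. On these counts limma 3.58.1 (voom, library sizes in proportion to the size factors) was fitted over 13445 genes. Intervals of 95% are the fold change plus or minus the normal quantile times its deposited standard error. That error rests on the fitted dispersion of the authors' model and is not the spread of a gene's own libraries. Variation beyond these 4 libraries is not covered.

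Gene models came from GENCODE 44 on hg38, a later release than that of the authors, and 99.1% of tested genes matched. Gene span was cut into 10 classes of equal size over 12134 protein-coding genes with a mean over 50. Equal library totals shift every log2 fold change by 0.66, with p recomputed from the deposited standard errors. The NMD factors and the lists were chosen with earlier results of these data known, and 1 gene first listed among the other NMD factors is not reported here. Of each list the highest and lowest genes and those called against its majority are named, with DHX34 and NBAS, and a few further members (RUVBL2, the core exon junction subunits with MAGOHB, SRSF3, TRA2B) for their known roles. Scripts used Python 3.11.15 and R 4.3.3.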

Additional observations from a re-analysis of the deposited data

How the results depend on the processing

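The counts of 3 cytoplasmic and 5 nuclear NMD factors moved by up to 1.5-fold under another centring, adjustment, filter or threshold. They were 2 and 6 with equal library totals, and 2 and 4 with Bonferroni adjustment. Limma on the recovered counts gave 3 and 5, but those counts were picked to match the deposited fold changes. With equal library totals the median log2 fold change of the NMD factors was -1.0002 and UPF1 turned to -0.14. Bonferroni adjustment ended the calls of UPF1 and SMG1, and an added limit of 0.5 on the absolute log2 fold change ended that of SMG1. Without each library in turn, 33 of 36 fits of single NMD factors kept their side of the threshold, all but 3 fits of SMG1. The count of nuclear calls was 4 or 5, that of cytoplasmic calls 3 throughout, and the median ranged from -0.37 to -0.33. In these fits the lone library of a fraction is assumed to vary like the others.

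The median departure from genes of like span, -0.44, was 0.032 with exonic length, -0.22 with no minimum mean and -0.66 with a minimum mean of 500. With exonic length the departures of SMG8, SMG9 and SMG6 turned to 1.02, 0.032 and -1.33, and with 20 classes of span that of SMG6 turned to -0.38. UPF3B stayed below its class in each, and the cause of these moves was not tested.

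With equal library totals the nuclear counts rose to 3 for other NMD factors, 2 for the exon junction complex, 6 for decapping and 5′ to 3′ decay, 6 for the SMG1-like kinases and 5 for NMD substrates. The cytoplasmic counts fell to 4 for the exon junction complex, 3 for the termination factors, 2 for decapping, 0 for the kinases and 7 for the substrates. These moves follow from the shift of 0.66 itself, and over all tested genes 16.2% were called cytoplasmic and 38.3% nuclear on that scale.

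The table does not tie the recovered libraries to replicate numbers, so the pairing is unknown. A replicate block in limma was added after the data were seen, under each of the 2 possible pairings. The NMD factors gave 3 cytoplasmic and 5 nuclear calls, with a median log2 fold change of -0.34. The recovered counts were used here too, so these fold changes are not independent of the deposited ones. The planned edgeR and DESeq2 fits were not run here, since no counts per library are among the authors' columns. With 2 libraries a fraction, precision was set by the number of libraries more than by depth, as the lowest mean of an NMD factor was 596.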
